A study of Homo sapiens with 10 samples.

Results

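The genes described are 10 members of the TNF receptor superfamily: TNFRSF1A, TNFRSF1B, FAS, TNFRSF10A, TNFRSF10B, TNFRSF10C, TNFRSF10D, TNFRSF11B, TNFRSF12A and CD40. They were taken by symbol from a table of 61587 genes counted by bulk RNA-seq of RPTECs, and all 10 were found there. The cells are RPTEC/TERT1, a human proximal tubular epithelial line immortalised with telomerase, which the labels also call primary renal epithelial cells from kidney. One group of 5 samples received 10 Gy of gamma radiation, the other 5 were mock-irradiated controls, and RNA was taken 7 days later, so that both groups share the line, its telomerase and the time in culture. No other genotype or agent is named. The methods give a single line, and the labels put a different number after TERT in each sample's cell line field. Replicates are numbered 1 to 5 in each group, and samples with the same number were compared as a pair. Nothing states that the replicates are separate cultures, and p-values measure only the spread between these samples.

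Summed counts ran from 78081911 to 131555873 in control and from 66269311 to 101594948 in irradiated samples, with the lowest total in irradiated replicate 2. Expression is given as CPM, a gene's counts scaled to the TMM-normalised total of its library, and a fold change is irradiated against control on the log2 scale. Of the epithelial markers, 6 of 6 were above the limit of 200 counts over the 10 samples, with summed levels of 2761 to 3221 CPM in control and 2888 to 4173 in irradiated samples. Of 8 proximal tubule markers, LRP2, SLC34A1, HNF4A and SLC22A6 lay under that limit. Leukocyte markers summed to 0.403 to 0.807 CPM in control and 1.28 to 2.09 in irradiated samples (2 of 6 above the limit, with ITGAM higher), endothelial markers to 1.29 to 2.41 and 4.15 to 6.07 (3 of 4), and fibroblast markers to 15.8 to 23.4 and 28.4 to 39.9 (2 of 5). No marker was at 0 in every sample. The sums of these 3 lists moved in the same direction as most of the receptors, but their members did not all do so. ITGAM, PECAM1, CDH5, COL1A1 and DCN were called higher, whereas PTPRC and VWF passed in neither direction. Of the genes under the limit, CD79A, CD68, KDR and PDGFRB had lower means in irradiated samples, and CD3E, LYZ, COL3A1 and LUM higher ones. Exons of other genes cover 85.6% of the exon length of CD68 and 34.7% of that of LYZ. Reads on such stretches may not have been counted. The part of these lists in the results was not tested. In bulk RNA, fewer cells of a type and less RNA per cell cannot be told apart.

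Receptors of this superfamily bind trimeric ligands with cysteine-rich repeats outside the cell. Those with an intracellular death domain (TNFRSF1A, FAS, TNFRSF10A and TNFRSF10B) can recruit adaptors that activate caspase 8 or, where caspases are blocked, the necroptosis kinases, while others (TNFRSF1B, CD40 and TNFRSF12A) bind TRAF adaptors and signal mainly to NF-κB. TNFRSF10C, TNFRSF10D and TNFRSF11B are decoys that bind ligand without passing on a full death signal. In the kidney, tubular epithelium is a known target of TNF and FAS ligand in injury. The comparison asks how expression of the receptors differed between irradiated cells, which the study made as a model of senescence, and healthy RPTECs.

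Of the 10 receptors, 8 were higher and 1 was lower in irradiated RPTECs, and TNFRSF1B had too few counts to be tested. FAS rose the most (4.38-fold), followed by TNFRSF10C (3.71-fold), TNFRSF11B (3.52-fold), TNFRSF10B (2.35-fold) and TNFRSF10A (2.03-fold), while TNFRSF10D (1.90-fold), CD40 (1.71-fold) and TNFRSF12A (1.58-fold) rose by less. TNFRSF1A, the widely expressed receptor for TNF, fell to 0.761 of its control level. Over all 19006 genes tested, 23.9% were higher and 22.7% lower at an adjusted p under 0.05 (quasi-likelihood test of edgeR, Benjamini-Hochberg adjustment over all genes). A rise of more than 2-fold was found for 5 of the 9 receptors tested and for 5.26% of all genes. Irradiated samples lay wholly above control samples for 8 receptors (14.6% of all genes) and wholly below for TNFRSF1A (12.0% of all genes). The median log2 fold change was 1.02 over the 9 receptors and -0.01 over all genes. Each of the 9 receptors moved the same way in 5 of 5 pairs, and the share of all genes that did so was not counted. Of all genes called, 51.4% were higher, and 38.0% when libraries were scaled by size alone, which moved the median of all genes by -0.08 (log2) and left each receptor's direction as it was.

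**Figure D1:**
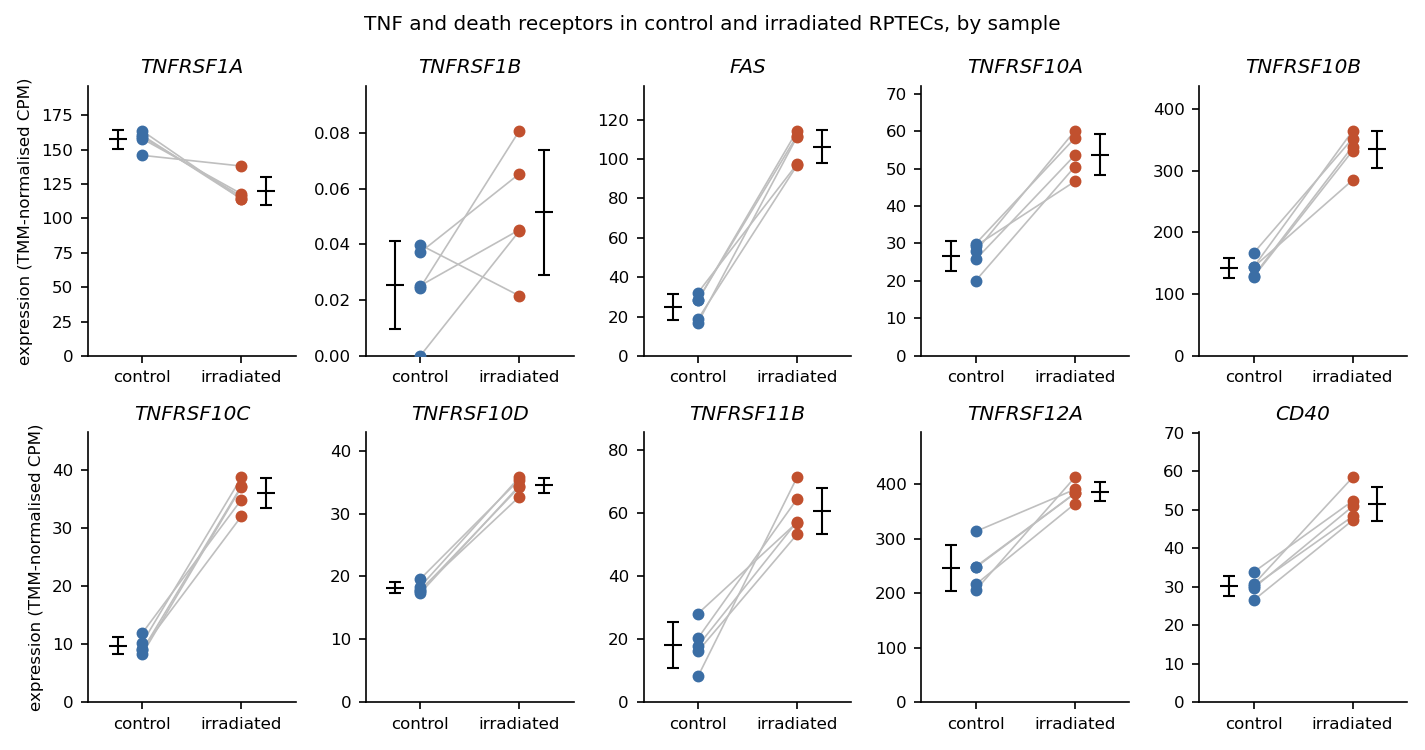
Expression of each receptor in TMM-normalised CPM (vertical axes, each from 0) in the 5 control (blue) and 5 irradiated (orange) samples, with grey lines joining samples of the same replicate number and black bars giving mean and SD. Irradiated samples lie above all controls for 8 receptors, below them for TNFRSF1A (114 to 138 against 146 to 163 CPM), and overlap the controls for TNFRSF1B, where no sample exceeds 0.0807 CPM.

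TNFRSF1A (chromosome 12, 6328757 to 6342114, minus strand; all coordinates are GRCh38, GENCODE release 44) encodes the main receptor for soluble TNF. Its expression was 159, 146, 160.2, 163 and 158 CPM in control replicates 1 to 5 and 116, 138, 114, 114 and 118 CPM in irradiated replicates 1 to 5. The groups did not overlap, and irradiated replicate 2 stood above the other irradiated samples. The log2 fold change was -0.39 (SE 0.07, 95% interval -0.55 to -0.24, adjusted p = 0.00256, edgeR). Within pairs it fell by between 0.08 (replicate 2) and 0.52 (replicate 4) on the log2 scale, and without replicate 2 the fitted log2 fold change was -0.46. No exon of TNFRSF1A lies under another annotated gene.

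TNFRSF1B (chromosome 1, 12166991 to 12209228, plus strand) encodes the second TNF receptor, which lacks a death domain and is best known from immune and endothelial cells. Only 36 reads were counted on it in all, with 2, 0, 4, 4 and 3 in control and 8, 3, 2, 6 and 4 in irradiated replicates 1 to 5. The counts of the groups overlapped. When every gene with at least 1 count was kept, its log2 fold change was 0.97 (SE 0.67, 95% interval -0.42 to 2.36, adjusted p = 0.416, edgeR), so that a difference was not detectable at this depth.

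FAS (chromosome 10, 88953813 to 89029605, plus strand) encodes the death receptor for FAS ligand. It measured 18.7, 32.1, 16.9, 28.4 and 28.4 CPM in controls 1 to 5 and 96.7, 97.4, 111, 114 and 112 CPM in their irradiated partners. All irradiated samples thus stood far above the highest control, replicate 2. Its log2 fold change of 2.13 was the largest among the receptors (SE 0.15, 95% interval 1.79 to 2.47, adjusted p = 4.79e-05, edgeR), with pair differences from 1.60 (replicate 2) to 2.72 (replicate 3). Exons of other genes on the opposite strand, among them ACTA2, cover 6.48% of its exon length.

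The promoter windows of the receptor that rose most and of the receptor that fell are shown to set their sequences side by side, as RefSeq gives them for GRCh38.p14, from 250 bases before to 50 bases after the annotated start and 5′ to 3′ on the gene's strand. Capitals mark a match to an AP-1 pattern (TGANTCA, with any base at N) and a GC box (GGGCGG), searched on both strands. That pattern is wider than the strict AP-1 consensus. The windows are chr10:88990548-88990847 (plus strand) for FAS and chr12:6342027-6342326 (minus strand) for TNFRSF1A. They are set on RefSeq starts, and the FAS window lies downstream of the GENCODE gene start at 88953813.
FAS: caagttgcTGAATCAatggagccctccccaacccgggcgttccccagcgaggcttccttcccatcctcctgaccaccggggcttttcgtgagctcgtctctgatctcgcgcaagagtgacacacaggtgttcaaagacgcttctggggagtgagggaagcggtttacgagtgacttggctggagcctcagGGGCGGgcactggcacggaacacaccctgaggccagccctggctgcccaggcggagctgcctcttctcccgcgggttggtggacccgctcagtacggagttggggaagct
TNFRSF1A: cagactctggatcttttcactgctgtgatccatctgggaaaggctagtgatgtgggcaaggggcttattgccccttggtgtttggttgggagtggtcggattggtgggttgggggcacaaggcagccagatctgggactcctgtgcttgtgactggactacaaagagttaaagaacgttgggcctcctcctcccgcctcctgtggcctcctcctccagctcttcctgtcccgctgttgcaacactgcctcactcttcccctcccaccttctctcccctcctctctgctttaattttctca

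Windows were held for 3 of the 10 receptors, FAS, TNFRSF1A and TNFRSF1B. The FAS window matches the AP-1 pattern from -242 to -236 and has a GC box from -60 to -55. With A at its open position, the former match does not meet the strict AP-1 consensus. Positions are relative to the RefSeq start, and the matches in FAS do not overlap. The TNFRSF1B window has GC boxes from -55 to -50 and from -50 to -45, and no other match. The TNFRSF1A window holds none of the motifs searched. Among 27305 promoters of the same length, 7.76% match this wide AP-1 pattern and 44.6% hold the GC box. The κB consensus, found in 10.8% of promoters, and the p53 consensus, found in 0.0293%, matched none of the 3 windows. With shares this low, almost any 3 windows would lack a p53 match, and sequence outside the windows was not searched. Whether these receptors have such sites elsewhere is therefore not known from the search. These matches describe letters in the windows, and binding was not measured in these samples.

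The 4 receptors of TRAIL (TNFSF10) lie side by side on chromosome 8, within 204970 bases from 23020133 to 23225102, in the order TNFRSF10B, TNFRSF10C, TNFRSF10D and TNFRSF10A. TNFRSF10A and TNFRSF10B carry a death domain, TNFRSF10C is held to the membrane by a lipid anchor without an intracellular part, and TNFRSF10D has a truncated death domain. All 4 were higher in irradiated cells, and the decoy TNFRSF10C had the largest fold change among them.

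TNFRSF10B (23020133 to 23069031, minus strand) was the most abundant of the 4, with 129, 144, 166, 144 and 128 CPM in control and 339, 285, 352, 364 and 332 CPM in irradiated replicates 1 to 5. The groups lay well apart, with irradiated replicate 2 the lowest of its group, and the log2 fold change was 1.23 (SE 0.07, 95% interval 1.07 to 1.40, adjusted p = 2.91e-05, edgeR). TNFRSF10A (23190452 to 23225102, minus strand) stood at 20.1, 29.4, 30.0, 27.9 and 25.7 CPM in controls and at 50.5, 46.5, 58.1, 60.0 and 53.5 CPM after irradiation. Each irradiated sample exceeded each control, with a log2 fold change of 1.02 (SE 0.09, 95% interval 0.82 to 1.22, adjusted p = 0.000102, edgeR). That estimate lies at the 2-fold limit, which its interval spans.

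For the decoy TNFRSF10C (23102921 to 23117445, plus strand), controls measured 9.27, 10.3, 12.0, 8.36 and 8.97 CPM and irradiated samples 32.1, 38.7, 34.9, 37.1 and 37.3 CPM. The groups were far apart, with a log2 fold change of 1.89 (SE 0.09, 95% interval 1.68 to 2.10, adjusted p = 1.56e-05, edgeR). For the decoy TNFRSF10D (23135588 to 23164027, minus strand), values were 17.7, 17.9, 18.4, 19.6 and 17.3 CPM in controls and 34.2, 32.7, 35.7, 35.4 and 34.4 CPM in irradiated samples. Spread within groups was small, and the log2 fold change was 0.92 (SE 0.05, 95% interval 0.82 to 1.03, adjusted p = 1.59e-05, edgeR). The interval of TNFRSF10C lies above those of the other 3 TRAIL receptors. The difference in fold change between genes was not tested.

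Among the 4 genes the counting may lose reads. The 17 protein-coding genes lying entirely under opposite-strand exons had 0 counts throughout, whereas this held for 10.6% of 12742 without such overlap, so the counts are treated as made without strand and reads on shared stretches as left out. Opposite-strand exons cover 16.7% of the exon length of TNFRSF10A (TNFRSF10A-AS1 and TNFRSF10A-DT) and 7.53% of that of TNFRSF10B (RHOBTB2). Same-strand non-coding genes cover 33.0% of TNFRSF10C and none of TNFRSF10D. Levels of these genes can therefore be too low. The reference transcripts of the 10 receptors share no run of 50 bases with each other.

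Inside the cluster and within 500000 bases on either side, 25 other genes were tested, of which 11 were higher, 1 was lower and 13 passed in neither direction, with a median log2 fold change of 0.23. Over all genes tested, 23.9% were higher and 22.7% lower. Of the neighbours called higher, 2 rose more than 2-fold (5.26% of all genes), both non-coding genes inside the cluster. The protein-coding EGR3, outside the cluster, had a log2 fold change of 1.14 (SE 0.45, adjusted p = 0.0713, edgeR) and did not pass. CHILL1, between TNFRSF10B and TNFRSF10C, had a log2 fold change of 1.65 (SE 0.22, adjusted p = 0.000771, edgeR). Its level was low, with means of 0.230 CPM in control and 0.722 CPM in irradiated samples. TNFRSF10A-AS1, antisense to the end of TNFRSF10A, had a log2 fold change of 1.07 (SE 0.14, adjusted p = 0.000675, edgeR), with means of 1.78 and 3.65 CPM. In counts treated as made without strand, its reads cannot be told apart from TNFRSF10A reads that run past the annotated end. RHOBTB2, next to TNFRSF10B, had a log2 fold change of -0.17 (SE 0.07, adjusted p = 0.0717, edgeR) and did not pass. LOXL2, a lysyl oxidase gene beyond TNFRSF10A, rose by 0.73 on the log2 scale (SE 0.05, adjusted p = 4.76e-05, edgeR), with overlapping groups. Neighbours were named after their values were seen.

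**Figure D2:**
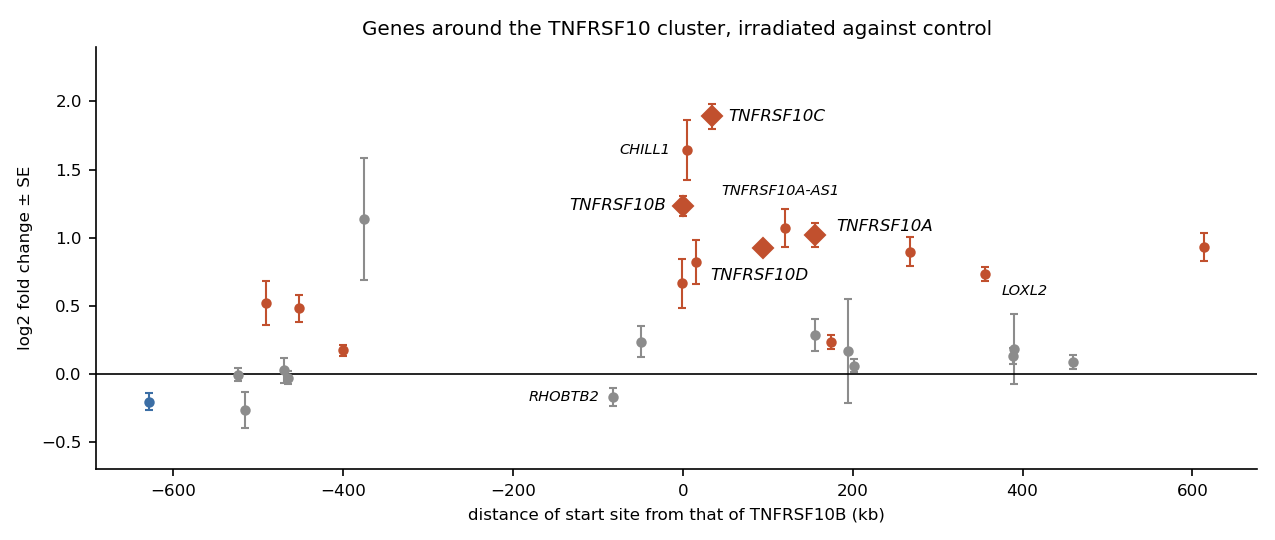
Log2 fold change ± SE (vertical axis) of genes around the TRAIL receptor cluster against the distance of their start site from that of TNFRSF10B in kb (horizontal axis), with diamonds for the 4 receptors, circles for the 25 neighbours, orange for higher, blue for lower and grey for genes that passed in neither direction. The receptors lie between 0.92 and 1.89, whereas the median of the neighbours is 0.23.

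Compared per kb of transcript, decoys took a larger part of the TRAIL receptor transcripts after irradiation. The ratio of TNFRSF10C plus TNFRSF10D to TNFRSF10A plus TNFRSF10B was 0.293, 0.266, 0.261, 0.249 and 0.273 in control and 0.315, 0.418, 0.321, 0.323 and 0.354 in irradiated replicates 1 to 5. The groups did not overlap, and irradiated replicate 2 had the highest ratio. The decoys differed, since TNFRSF10C over TNFRSF10B went from 0.167 to 0.206 in controls to 0.271 to 0.390 in irradiated samples, while TNFRSF10D over TNFRSF10B ranged from 0.125 to 0.155 and from 0.110 to 0.130. The latter ranges overlapped, although the ratio was lower in the irradiated sample of 5 of 5 pairs, whereas that of TNFRSF10C was higher in 5 of 5. TNFRSF10B was the main transcript of the 4 in both groups, with 60.5% to 62.8% of their summed level in controls and 56.7% to 62.3% in irradiated samples, a share that was lower in 5 of 5 pairs. These ratios are given without a test.

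TNFRSF11B (chromosome 8, 118923557 to 118951885, minus strand) encodes osteoprotegerin, a secreted decoy for TNFSF11 that also binds TRAIL. Expression in controls was 16.2, 28.1, 8.24, 20.4 and 17.9 CPM and in irradiated samples 53.2, 57.0, 71.2, 64.4 and 57.2 CPM. Control replicate 3 was the lowest and irradiated replicate 3 the highest of their groups. The log2 fold change of 1.82 was the least precise among the receptors (SE 0.26, 95% interval 1.22 to 2.42, adjusted p = 0.00102, edgeR), with pair differences from 1.02 to 3.11.

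TNFRSF12A (chromosome 16, 3018445 to 3022383, plus strand) encodes the receptor for TWEAK, a short receptor that binds TRAF adaptors and is known to be induced in injured epithelium. Controls stood at 216, 313, 206, 247 and 249 CPM and irradiated samples at 364, 390.2, 412, 383 and 383 CPM. It was the most abundant receptor in both groups, and the highest control lay under the lowest irradiated sample. The log2 fold change was 0.66 (SE 0.09, 95% interval 0.46 to 0.87, adjusted p = 0.000793, edgeR).

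CD40 (chromosome 20, 46118271 to 46129863, plus strand), a costimulatory receptor of antigen-presenting cells that epithelia also express, measured 26.5, 30.1, 33.8, 30.6 and 29.7 CPM in controls. In irradiated replicates it measured 47.3, 48.3, 52.3, 58.4 and 50.9 CPM. The groups were apart with little spread inside each, and the log2 fold change was 0.77 (SE 0.05, 95% interval 0.65 to 0.90, adjusted p = 4.94e-05, edgeR).

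Controls were not uniform for several receptors. Control replicates 1 and 3 had the lowest expression of FAS, TNFRSF11B and TNFRSF12A, and they also had the lowest expression of the proliferation marker MKI67, at 76.7 and 60.4 CPM against 220.4, 233.9 and 216.7 CPM in control replicates 2, 4 and 5. In irradiated samples MKI67 lay between 15.3 and 29.6 CPM. For TNFRSF10A, TNFRSF10B, TNFRSF10C and CD40, however, control replicate 3 was the highest control. Leaving out replicates 1 and 3 gave log2 fold changes of 1.85 for FAS, 1.43 for TNFRSF11B and 0.51 for TNFRSF12A, each still called higher. The same fit gave 0.93 for TNFRSF10A, 1.22 for TNFRSF10B, 2.02 for TNFRSF10C, 0.89 for TNFRSF10D, 0.78 for CD40 and -0.36 for TNFRSF1A. A part of proliferation in these differences was not tested. Replicate 2 gave the smallest pair difference for 6 of the 9 receptors, including TNFRSF1A, and its irradiated sample was also the one with the fewest counts.

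Per kb of its reference transcript, TNFRSF12A was the most expressed receptor in controls at 252 ± 43 CPM per kb (SD, n = 5), ahead of TNFRSF1A (72.5 ± 3.1), TNFRSF10B (35.6 ± 3.9) and CD40 (17.9 ± 1.5). The ranges of these 4 did not overlap. TNFRSF10A (9.89 ± 1.48), TNFRSF11B (8.71 ± 3.44), TNFRSF10C (7.01 ± 1.02), FAS (6.74 ± 1.81) and TNFRSF10D (5.14 ± 0.25) followed, each overlapping its neighbour in this order. After irradiation TNFRSF10B, at 83.6 ± 7.6 CPM per kb, stood above TNFRSF1A, at 55.3 ± 4.7, without overlap. CD40 (30.6 ± 2.6), TNFRSF11B (29.0 ± 3.4), FAS (28.8 ± 2.3) and TNFRSF10C (25.8 ± 1.9) then overlapped as neighbours, and TNFRSF10A (20.0 ± 2.0) and TNFRSF10D (9.75 ± 0.34) lay apart below them. FAS over TNFRSF1A per kb was 0.0620 to 0.130 in controls and 0.415 to 0.589 in irradiated samples. Levels per kb use the length of a single reference transcript, whereas counts cover all annotated exons of a gene. They are not corrected for stretches shared with other genes, which cover 33.0% of TNFRSF10C, 16.7% of TNFRSF10A and none of CD40. The order of receptors close in level is therefore uncertain.

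**Figure D3:**
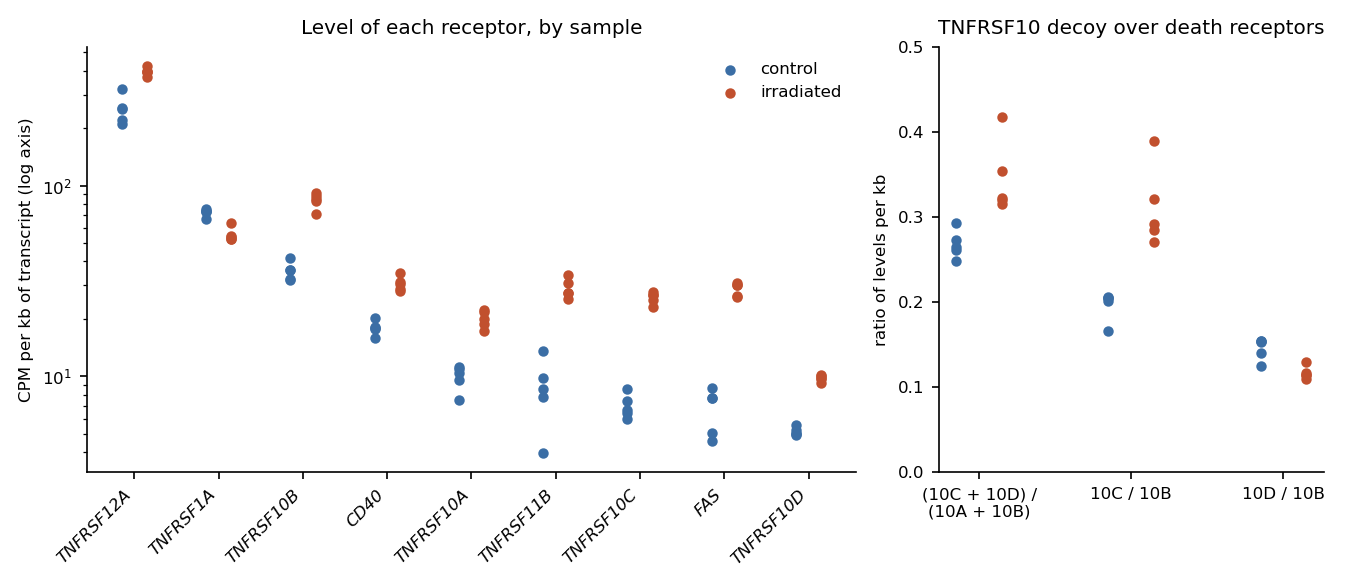
Left, level of the 9 tested receptors in CPM per kb of reference transcript (log axis) in each control (blue) and irradiated (orange) sample, ordered by the control mean. Right, ratios of TRAIL decoy to death receptors per kb in each sample, which do not overlap between groups for the summed ratio (0.249 to 0.293 against 0.315 to 0.418) or for TNFRSF10C over TNFRSF10B, and overlap for TNFRSF10D over TNFRSF10B.

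Ligands of the receptors were measured in the same samples. Of 7, 3 were tested and all 3 were higher (23.9% of all genes), with a median log2 fold change of 1.77, while LTA, FASLG, TNFSF11 and CD40LG lay under the limit. TNF itself stood at 0.832, 3.11, 1.97, 2.13 and 1.07 CPM in control and at 21.2, 16.5, 23.3, 26.8 and 24.7 CPM in irradiated replicates 1 to 5, a log2 fold change of 3.71 (SE 0.32, adjusted p = 0.000108, edgeR). TNFSF10, which encodes TRAIL, measured 71.0, 61.3, 61.4, 76.7 and 64.5 CPM in controls and 215, 192, 260.0, 259 and 223 CPM after irradiation. Both ligands thus lay apart between groups, and TNFSF10 had a log2 fold change of 1.77 (SE 0.07, adjusted p = 9.8e-06, edgeR). TNFSF12, which encodes TWEAK, rose by 0.27 on the log2 scale (SE 0.08, adjusted p = 0.0263, edgeR) with overlapping groups, and was no longer called in 7 of 14 alternative fits.

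Other receptors of the superfamily moved in both directions. Of 19 listed, 12 were tested, of which 8 were higher (23.9% of all genes), 1 was lower (22.7% of all genes) and 3 passed in neither direction, with a median log2 fold change of 0.98. Under the limit were TNFRSF4, TNFRSF6B, TNFRSF8, TNFRSF13B, TNFRSF17, TNFRSF18 and NGFR. Exons of other genes cover 100% of the exon length of TNFRSF6B, so its expression cannot be read from its 0 counts. The largest rises were those of TNFRSF9, a costimulatory receptor of T cells (0.840 ± 0.591 to 7.54 ± 2.90 CPM, SD, n = 5, log2 fold change 3.30), and EDAR, the ectodysplasin receptor (1.07 ± 0.27 to 9.39 ± 2.67 CPM, 3.09). EDA2R followed (4.18 ± 0.71 to 21.8 ± 3.4 CPM, 2.38), and TNFRSF11A, the receptor for TNFSF11, rose by 1.34 on the log2 scale. TNFRSF13C, a B cell survival receptor, was lower, at 0.422 ± 0.110 CPM in control and 0.107 ± 0.050 CPM in irradiated samples (SD, n = 5, log2 fold change -1.94). Adjusted p-values of these 5 lay between 2.26e-05 (EDA2R) and 0.00229 (TNFRSF13C, edgeR).

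Genes acting downstream of the death domains formed the next list. Of its 8 genes, 4 were higher, 2 lower and 2 passed in neither direction, none by more than 2-fold, with a median log2 fold change of 0.16. Shares over all genes were 23.9% higher and 22.7% lower, and 2 of 8 lower is near the latter. The adaptor FADD rose by 0.39 (SE 0.06, adjusted p = 0.00194, edgeR), although 59.2% of its exon length lies under the opposite strand. The initiator caspase CASP8 measured 31.0, 31.9, 30.4, 31.7 and 34.2 CPM in controls and 32.3, 31.2, 31.2, 30.6 and 32.9 CPM in irradiated samples. The groups overlapped, and its log2 fold change was -0.01 (SE 0.04, 95% interval -0.11 to 0.09, adjusted p = 0.889, edgeR). CFLAR, the inhibitor that competes with caspase 8 for FADD, rose from 130.3 ± 13.1 to 183 ± 8 CPM (SD, n = 5, log2 fold change 0.50), and BID, which links caspase 8 to mitochondria, rose by 0.30. The initiator CASP10 fell by 0.74 on the log2 scale.

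In the necroptosis list, MLKL, the pore-forming effector, was higher with a log2 fold change of 1.0 (SE 0.08, adjusted p = 8.37e-05, edgeR), from 11.4 ± 1.2 to 22.8 ± 1.8 CPM (SD, n = 5). The kinase RIPK1 had a log2 fold change of 0.02 (95% interval -0.07 to 0.12, adjusted p = 0.669, edgeR) and did not pass. RIPK3, at 0.948 ± 0.330 CPM in control and 1.15 ± 0.30 CPM in irradiated samples (SD, n = 5), was called higher by 0.30 (adjusted p = 0.0456, edgeR), a call lost in all 14 alternative fits (0.0526 to 1.0). The list therefore counted 2 of 3 genes higher in the fit reported, where 23.9% of all genes were higher, and no more than 1 in any alternative.

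Of 17 adaptors and ubiquitin enzymes of TNF receptor complexes, 10 were higher (23.9% of all genes), 1 was lower (22.7% of all genes) and 6 passed in neither direction, with a median log2 fold change of 0.25. More than 2-fold higher were 3 of the 17, against 5.26% of all genes. They were the deubiquitinase TNFAIP3 (8.77 ± 3.54 to 108 ± 26 CPM, SD, n = 5, log2 fold change 3.67), the ubiquitin ligase BIRC3 (8.15 ± 2.86 to 82.1 ± 18.2 CPM, 3.37) and the adaptor TRAF1 (1.12 ± 0.27 to 5.10 ± 1.17 CPM, 2.19). BIRC2, a ligase related to BIRC3, rose by 0.49, RBCK1 of the linear ubiquitin complex by 0.46 and TRADD, the adaptor of TNFRSF1A, by 0.23 on the log2 scale (adjusted p = 0.00013, 0.000198 and 0.00504, edgeR). The call of TRADD was lost without the replicate block (adjusted p = 0.0525, edgeR).

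Receptors can also be cut from the cell surface. Of 4 genes of the shedding list, 2 were higher, 1 was lower and 1 passed in neither direction, with a median log2 fold change of 0.56. Shares over all genes were 23.9% higher and 22.7% lower, and 1 of 4 lower is near the latter. TIMP3, the inhibitor of the sheddase ADAM17, measured 1.13, 0.737, 3.56, 1.47 and 0.823 CPM in control and 17.3, 5.33, 34.4, 15.7 and 9.0 CPM in irradiated replicates 1 to 5, a log2 fold change of 3.39 (SE 0.15, adjusted p = 1.08e-05, edgeR). Within each group replicate 3 was the highest and replicate 2 the lowest. RHBDF2, which carries ADAM17 to the surface, rose by 1.0 (adjusted p = 4.2e-05, edgeR), and ADAM17 itself fell by 0.24 on the log2 scale (adjusted p = 0.034, edgeR), with overlapping groups and a call lost in 4 of 14 alternatives.

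**Figure D4:**
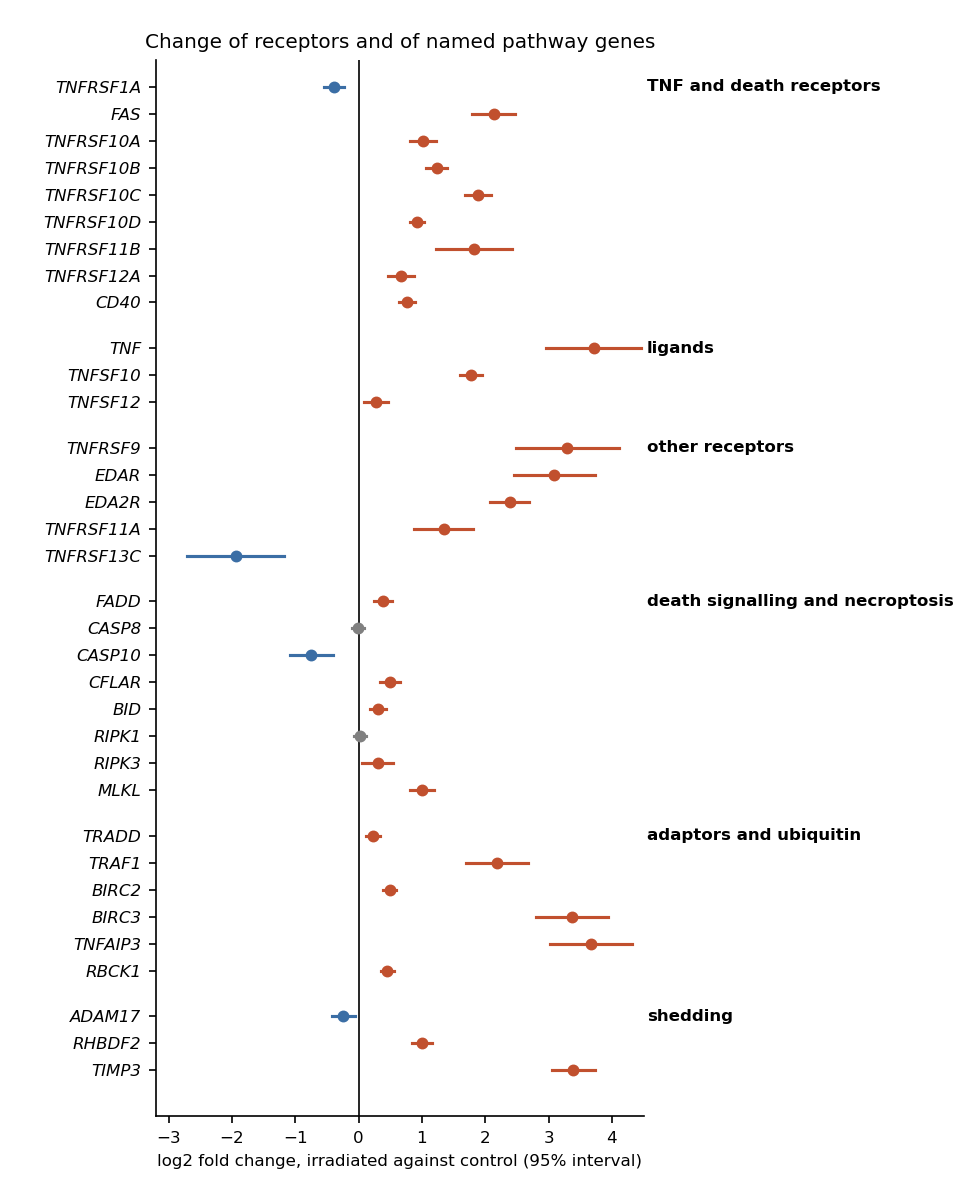
Fitted log2 fold change with its 95% interval (horizontal axis) for the 9 tested receptors and the named genes of each pathway list, with orange for higher, blue for lower and grey for genes that passed in neither direction. TNFRSF1A at -0.39 is the only receptor of the first block below 0, and CASP8 and RIPK1 sit at 0.

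The gene whose expression over the 10 samples was most like that of each receptor was found by Pearson correlation of log2 CPM among 12841 genes with a mean of at least 1 log2 CPM. For FAS this was TM7SF3 (r = 0.998), for TNFRSF10B NFKB2 (0.996), for TNFRSF10A DHX32 (0.996), for TNFRSF10C LACC1 (0.995) and for TNFRSF10D SFXN3 (0.996). For TNFRSF11B it was CDK5R1 (0.990), for TNFRSF12A CCZ1B (0.990), for CD40 BMP1 (0.990) and for TNFRSF1A SSC5D (0.987), which was itself lower after irradiation (log2 fold change -1.70). The samples share 2 group levels, so these values describe mostly the difference between groups, and no test was made.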

How the data were processed

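RNA-seq was made from 5 control and 5 irradiated samples of RPTEC/TERT1 cells. The methods name a poly-A library kit that differs from the one in the labels. The authors trimmed reads with Trim-Galore, aligned them to GRCh38 with STAR and deposited the gene counts of STAR as whole numbers, not normalised. The labels also name DESeq2 and hg38. The annotation release and the use of strand are not given in the sources used here. Depth per sample was 66269311 to 131555873 counts, so replicate spread sets the precision, except for genes with few counts.

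Tests were run with edgeR 4.0.16 in R 4.3.3 (TMM, glmQLFit, glmQLFTest) on the 19006 of 61587 genes whose counts summed to 200 or more, a limit taken from the study, with replicate number as a block as in the study's model and Benjamini-Hochberg adjustment over all genes. The threshold was an adjusted p of 0.05. SEs were obtained from the log2 fold change and the F statistic. Log2 CPM for correlations had a prior count of 2. The code was tested on simulated data. Same-numbered samples deviated together from their group means (correlation over genes 0.217 to 0.508 for the 5 numbers, -0.354 to 0.317 for different numbers), and the numbers were taken to pair the samples. Counts of the most similar replicates, 4 and 5, differed by more than sampling noise in both groups (chi-square per gene 11.7 in control and 6.83 in irradiated samples).

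Alternatives were DESeq2 1.42.0, limma-voom (limma 3.58.1), other scalings and filters, no block, a test against 2-fold (glmTreat), and each replicate left out. Leaving out replicates 1 and 3 together was added after the data were seen. The receptors and the lists were chosen with earlier results of these data known. All receptors are named, and of each pathway list the up to 5 largest changes called, genes under the limit by name, and FADD, CASP8, CFLAR, RIPK1 and TRADD. The result of 1 list gene is not reported here. Symbols matched 61415 identifiers. Promoters came from RefSeq (GRCh38.p14), transcript lengths and overlaps from GENCODE release 44. Figures were drawn with matplotlib 3.10.9.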

Additional observations from a re-analysis of the deposited data

Results flagged for a closer look

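Among groups of 5 samples, 7 of 82 held a sample that passed Dixon's criterion for distance from the others, against 4.1 by chance, and several values share samples. TNFRSF1A stood at 138.0 CPM in irradiated replicate 2, against 114.0 to 117.8 CPM in the other irradiated samples, and remained under every control. The ratio of TNFRSF10C to TNFRSF10B per kb was 0.1665 in control replicate 4 and 0.2011 to 0.2061 in the other controls.

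Control replicate 3 accounted for 4 of the 7, all in genes of the pathway lists. TNFRSF11A stood there at 2.113 CPM (other controls 3.32 to 3.503), CASP10 at 41.0 (23.96 to 26.97), TIMP3 at 3.559 (0.7369 to 1.467) and RHBDF2 at 48.93 (36.02 to 39.71). TNFSF12 was high in irradiated replicate 3, at 8.077 CPM against 6.032 to 6.62 in the other irradiated samples. The cause of these values was not tested.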

How the results depend on the processing

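Each of the 9 receptors tested kept its direction under all 14 alternatives, and each kept its call except under the test against a 2-fold change (glmTreat). By its construction that test asks for larger changes, and under it 4 receptors were called higher (FAS, TNFRSF10B, TNFRSF10C and TNFRSF11B) and 0 lower. It also left 3 calls among other receptors, 0 in death signalling, 0 in necroptosis, 3 among adaptors and ubiquitin enzymes and 1 in the shedding list. Over all 19006 genes it called 540 higher and 238 lower. The log2 fold change ran from 1.85 to 2.27 for FAS, from 1.43 to 2.03 for TNFRSF11B and from -0.47 to -0.36 for TNFRSF1A, and between 4 and 5 receptors were more than 2-fold higher, since TNFRSF10A lies at that limit.

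The necroptosis count of 2 became 1 under DESeq2, limma-voom, filterByExpr, library size only, a minimum of 1 count, upper-quartile normalisation, and without replicates 1 and 3 together, and 1 without each replicate in turn, because RIPK3 lost its call. Without the replicate block it was also 1, the calls among ligands went from 3 to 2 (TNFSF12 was lost), those among other receptors from 9 to 8 and those among adaptors from 11 to 9 (TRADD was lost), while the calls of the 9 receptors tested were as with the pairing. Calls in each direction numbered 3640 and 3366 over all genes without the block, against 4550 and 4307 with it. At 36 counts, TNFRSF1B is limited by depth.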
